A study of Mus musculus with 14 samples.

Results

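The RNA-seq data described here cover 43 microRNA loci detected in mouse mammary tumors. The loci were selected on their level: of 691 rows of the expression table that name a single microRNA gene, those were taken whose normalized counts averaged 10 or more in any of the 4 groups of tumors. That a locus passed this limit is a description and not a finding. The whole table holds 56414 rows, of which 22710 pass the same limit. The groups were untreated M/D-driven tumors (4 tumors), NAM-treated M/D-driven tumors (4), untreated AT3 tumors (3) and NAM-treated AT3 tumors (3), with 1 library per tumor. All tumors grew in C57Bl/6 mice. M/D-driven tumors arose in females that were 6 to 9 weeks old when a pellet releasing medroxyprogesterone acetate (MPA, a synthetic progestin) was implanted. They then received the carcinogen 7,12-dimethylbenz[a]anthracene (DMBA) by gavage, so that each such tumor had its own origin. AT3 tumors came from subcutaneous injection of 1 mammary carcinoma cell line. Mice entered a group when their tumor measured 0.25 square cm, and nicotinamide (NAM, a form of vitamin B3) was given at 0.5% in the drinking water for 10 days. By the labels, experiment 1 held all M/D-driven tumors but NAM-treated tumor 1, which came from experiment 2, and experiment 3 held all AT3 tumors, so that model and experiment cannot be told apart.

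A microRNA is made from a long primary transcript, in which the Drosha and Dgcr8 proteins cut out a hairpin. Dicer1 then cuts the hairpin to a short duplex, and an Argonaute protein keeps 1 strand of it, which pairs with target mRNAs through its seed (the bases at positions 2 to 8) and lowers their translation and stability. The RNA sequenced here was polyadenylated, which leaves mature microRNAs aside, so that the counts of a microRNA locus come from its primary transcript, from a host gene that spans it or from an mRNA copy of it. In mammary tumors, let-7 and miR-34a are studied as restraints on growth, miR-155 and miR-142 as products of leukocytes, and miR-31 for its link with metastasis.

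Mature sequences were in the RefSeq microRNA table (GRCm38.p6) for 33 of the 43 loci, with 58 mature strands. The strands shown are those of the loci on which the comparisons turn, 5′ to 3′, with the seed in capitals. Only a pair of seeds was shared within the set. The let-7 strands share GAGGUAG, and miR-301a and miR-130a share AGUGCAA.
let-7i-5p: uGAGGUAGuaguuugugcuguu
let-7d-5p: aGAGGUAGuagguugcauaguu
miR-301a-3p: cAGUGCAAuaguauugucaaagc
miR-130a-3p: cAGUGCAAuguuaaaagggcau
miR-34a-5p: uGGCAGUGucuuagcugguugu
miR-155-5p: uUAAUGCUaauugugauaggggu
miR-142a-3p: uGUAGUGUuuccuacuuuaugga
miR-146a-5p: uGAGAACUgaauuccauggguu
miR-339-5p: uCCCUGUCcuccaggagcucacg
miR-25-3p: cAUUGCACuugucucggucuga
miR-31-5p: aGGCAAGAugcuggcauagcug
miR-196a-5p: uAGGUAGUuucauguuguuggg
miR-140-3p: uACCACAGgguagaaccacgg
miR-6516-3p: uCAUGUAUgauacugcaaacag
miR-6236: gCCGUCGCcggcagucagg
miR-682: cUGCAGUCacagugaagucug

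Whole reads recovered from the table numbered 40936868 to 84178009 per tumor, and the 43 loci took 0.0398 to 0.112% of them. Values are normalized counts, meaning reads on a gene divided by the size factor of the tumor, and they are not per length. NAM-treated M/D-driven tumor 1 stood apart. Its summed count of B cell markers was 196150, against 99.9 to 1766 in the 7 other M/D-driven tumors, and its summed count of 4 leukocyte markers was 117280, against 21742 to 40199. The 8 epithelial markers summed to 7711 in it, against 261830 to 1038000 in the others, so that the defining markers of the labelled tissue were lowest there, although all 8 were detected in the series. In whole tumors, fewer cells of a type and less RNA per cell cannot be told apart. The main results in M/D-driven tumors are given with and without tumor 1, the latter being the values within experiment 1.

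Of the 691 microRNA rows, 453 were at 0 in all 14 tumors, 195 were above 0 but under the limit, and 43 passed it. Just inside the limit were Mir3060 (highest group mean 12.0), Mir677 (10.9), Mir1a-1hg (10.7), Mir1949 (10.6), Mir8091 (10.5) and Mir203 (10.4). Just outside were Mir1938 (8.82), Mir1895 (8.73), Mir143 (7.72), Mir204 (7.71), Mir1192 (7.66) and Mir762 (7.63). The limit was passed in all 4 groups by 22 loci, in both models by 28, only in M/D-driven tumors by 10 and only in AT3 tumors by 5. Among known families the limit was reached by 2 of the 10 let-7 loci listed (Mirlet7i and Mirlet7d), 4 of 8 haematopoietic loci, 4 of 23 loci known as oncomirs, 3 of 17 stromal and muscle loci, 1 of 7 epithelial loci (Mir203) and 1 of 17 imprinted loci (Mir296, in the Gnas domain).

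**Figure D1:**
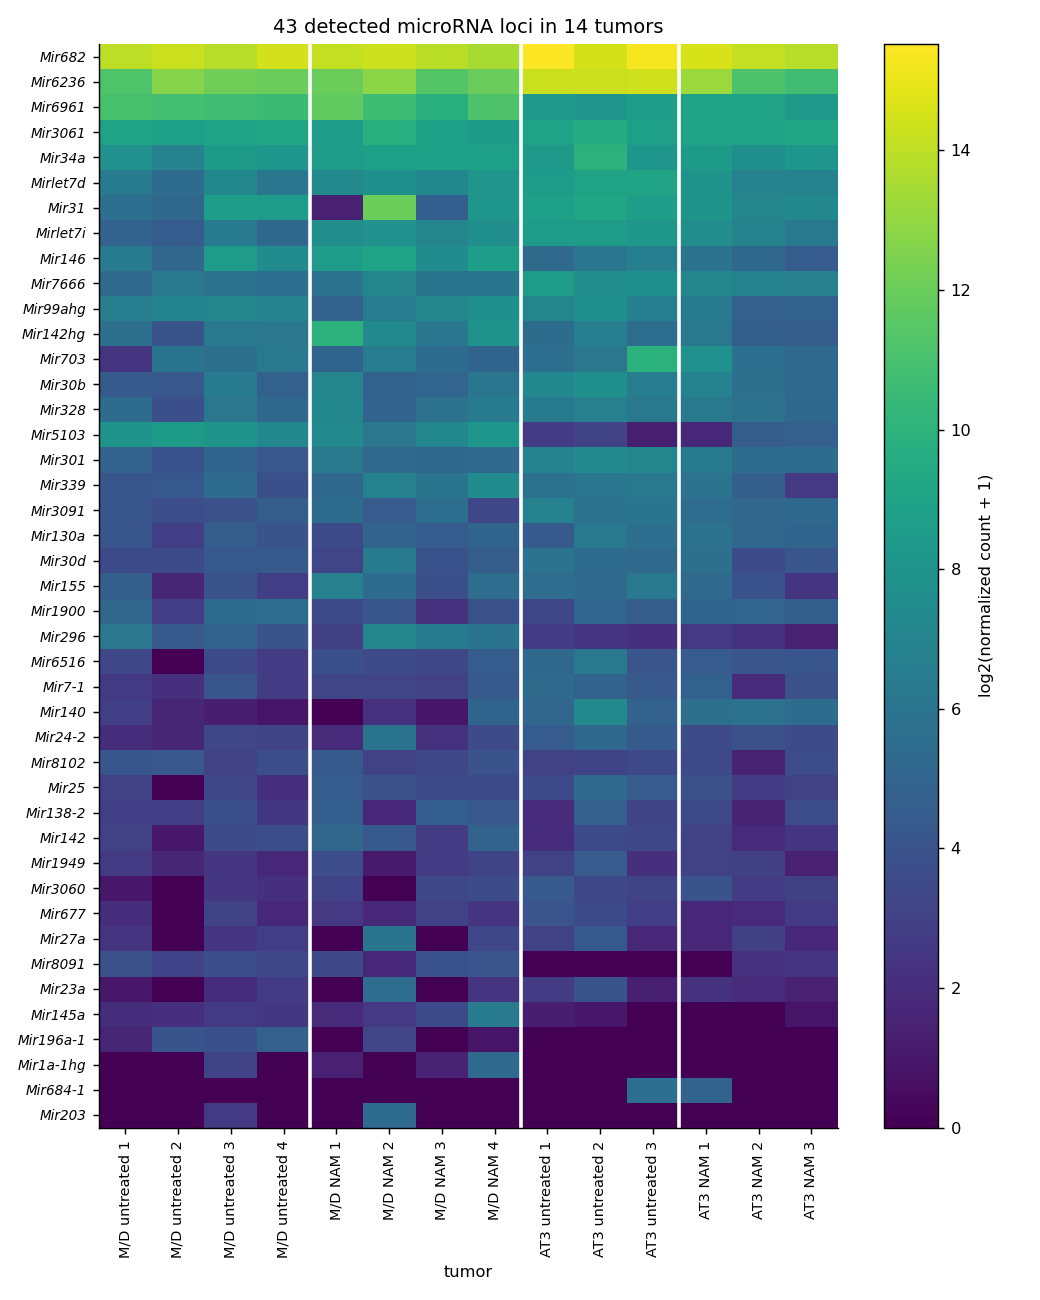
Heat map of the 43 detected microRNA loci (lines, ordered by their mean) in the 14 tumors (columns, white lines between groups), with colour giving log2(normalized count + 1). Mir682 and Mir6236 lie on top in every tumor, Mir31 is brightest in NAM-treated M/D-driven tumor 2 with 4210 normalized counts, and Mir196a-1 is at 0 in all AT3 tumors.

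What a row named for a microRNA covers differed between loci. In 20 rows the span was that of the hairpin, 70 to 139 bases, whereas 23 rows covered a longer transcript of 613 to 362216 bases (median 2995). By GENCODE M21 on the same assembly (mm10, GRCm38), the hairpin lay in an exon of another gene on its own strand for 14 loci, and in an intron of one for 9. Some rows were the gene model of another gene. The row named Mir6961 (chr15:100641082-100669500) matched Bin2, a gene of blood cells, with a reciprocal overlap of 0.998, and its hairpin lies in a Bin2 intron. The row named Mir3061 (chr11:52124530-52127779) matched the lincRNA 9430098F02Rik, whereas its hairpin lies on the opposite strand, in an exon of Ppp2ca, the catalytic subunit of protein phosphatase 2A. Mir34a (chr4:150068454-150070999) matched the transcript Gm37795 with an overlap of 0.966. Mirlet7i (chr10:122985077-122985833) held its hairpin in an exon of D630033A02Rik, Mirlet7d (chr13:48535256-48537118) in an exon of the lincRNA 6720427I07Rik, Mir155 (chr16:84713023-84715245) in an exon of its host transcript Mir155hg, and Mir31 (chr4:88909854-88942042) in an exon of the lincRNA AL805899.1. Whether the counting used strand is not given in the sources used here, so that reads of overlapping genes on opposite strands cannot be told apart.

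Most of the reads of the 43 loci fell on Mir682 and Mir6236. For Mir6236, no GENCODE microRNA lay wholly within the row and no gene of another kind overlapped it. What its reads come from was not tested, so that they may not stem from a microRNA transcript. Mir682 (chr13:75645046-75645141) lies within the processed pseudogene Gm4149. Its hairpin of 96 bases differs from a transcript of Rpl37a, which encodes a protein of the large ribosomal subunit, at 1 base, C48T (the hairpin's base first, positions counted from 1 at the 5′ end of the hairpin), and 24 annotated genes hold a match of at least 90%. The base that differs is in capitals.
Mir682 hairpin: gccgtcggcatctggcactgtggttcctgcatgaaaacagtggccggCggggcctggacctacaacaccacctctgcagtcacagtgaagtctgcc
Rpl37a transcript: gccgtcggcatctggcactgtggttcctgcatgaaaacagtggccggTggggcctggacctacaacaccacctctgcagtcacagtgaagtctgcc
The mature strand of miR-682 is at positions 74 to 94 of both, with no difference. The normalized counts of Mir682 were 16342, 19567, 14626 and 22831 in untreated M/D-driven tumors, where those of Rpl37a were 7309, 10175, 7470 and 11522. In untreated AT3 tumors, Mir682 had 47106, 23971 and 41296 and Rpl37a 23506, 13093 and 21799. Both were lowest among the AT3 groups in the same tumor, NAM-treated tumor 3, with 15050 and 6966. The Mir703 hairpin (chr5:98475556-98475664) likewise matched Eef1a1, a translation elongation factor, over 98.2% of aligned bases. The count of either locus may therefore be shared with its mRNA copy. Both stay in the counts and medians over loci given below, but neither value is read as that of a microRNA.

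The first comparison asked what NAM did in M/D-driven tumors. The let-7 loci were higher with NAM. Mirlet7i had 29.1, 21.7, 84.1 and 35.4 normalized counts in the untreated tumors and 199, 229, 135 and 213 in the NAM-treated ones. Every NAM-treated tumor was above every untreated one. Its mean went from 42.6 ± 28.2 (SD, n = 4) to 194 ± 41.0 (SD, n = 4), a log2 difference of 2.33 (SE 0.47, adjusted p = 0.734). Mirlet7d had 84.1, 42.4, 151 and 67.6 without and 157, 222, 149 and 275 with NAM, where untreated tumor 3 overlapped the NAM-treated ones. The log2 difference was 1.31 (SE 0.44, adjusted p = 0.734). Without NAM-treated tumor 1 these differences were 2.30 and 1.41, both still called. Differences were computed as log2 of the normalized count plus 1, so that changes of low loci are understated, and tests were two-sided tests in limma. A locus was called when its unadjusted p was at most 0.05 and its fold change at least 1.5, the thresholds of the study's methods. The p printed beside a difference is the one adjusted over all genes, which was above 0.05 for every locus in both NAM comparisons.

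Of the 38 loci tested in M/D-driven tumors, 6 were called higher with NAM, beside 3.03% of all 21700 genes tested, and 1 was called lower, beside 3.19%. The 6 had all passed the level limit in both groups, which 26 of the 38 loci did, whereas 11 passed only through NAM-treated tumors and 1 only through untreated ones. The median log2 difference was 0.59 over the 26, and 0.01 over all genes. A log2 difference above 0 was found for 18 of these 26, and for 51.1% of all genes. The 11 loci that passed through NAM-treated tumors alone were all above 0, as their selection favours. By length, the median over all genes was 0.01 for rows of up to 200 bases, 0.26 from there to 1200 bases, 0.16 up to 5000 bases and −0.03 above. In the same order, 11 of 366, 77 of 1063, 328 of 5233 and 242 of 15038 genes were called higher. Those called lower numbered 10, 11, 121 and 550. The 6 loci called higher had rows of 757 (Mirlet7i) to 2963 bases (Mir339). With the dependence on length removed, 7 loci were higher and Mirlet7i stood at 2.09. Without tumor 1, 6 were higher, with Mir296 (1.68) in place of Mir155, and 0 were lower. In limma 0 loci passed an adjusted p of 0.05 (smallest 0.734), beside 0.00461% of all genes, and 7 had an unadjusted p of at most 0.05, beside 6.71%. On the recovered reads edgeR passed 0 loci and DESeq2 passed 1, the latter beside 176 of 21700 genes.

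Leukocyte loci followed. Mir155, in a transcript that activated lymphocytes and macrophages make, had 24.9, 2.17, 15.02 and 6.44 in untreated and 109.5, 43.8, 12.9 and 45.7 in NAM-treated tumors. NAM-treated tumor 3 lay among the untreated values. The log2 difference was 2.09 (SE 0.86, adjusted p = 0.734). Mir142hg, the host transcript of miR-142 in blood cells (chr11:87755577-87757267), had 51.9, 15.2, 72.1 and 70.8 and 1020, 161, 68.1 and 253. Tumor 1, with the high B cell and leukocyte markers, was the highest of all. The log2 difference was 2.33 (SE 0.86, adjusted p = 0.734), and without tumor 1 it was 1.62 and still called, whereas the call was lost without untreated tumor 2 or NAM-treated tumor 4. For Mir155 it was 1.63 without tumor 1 and no longer called, as was so without NAM-treated tumors 2 or 4 or untreated tumors 2 or 4. Mir146, the locus of miR-146a, which restrains NF-κB signalling, had 78.9, 33.7, 383 and 175 and 373, 514, 188 and 404, a log2 difference of 1.57 (SE 0.72, adjusted p = 0.734) that was not called, with overlap of the groups. Without tumor 1 it was 1.54. Over the 4 leukocyte markers the median log2 difference was 0.44 and none was called, and their part in these results was not tested.

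Mir34a, a target of p53, had 229, 115, 351 and 282 in untreated and 378, 451, 466 and 477 in NAM-treated tumors, with no overlap. Its log2 difference was 0.96 (SE 0.36, adjusted p = 0.734), 1.04 without tumor 1, and the call was lost without untreated tumor 1 or any of NAM-treated tumors 2, 3 and 4. Mir339, in an intron of 3110082I17Rik, had 16.6, 18.5, 42.8 and 12.9 and 34.8, 111, 63.5 and 181. NAM-treated tumor 1 lay under untreated tumor 3 in this case, and the log2 difference was 1.95 (SE 0.62, adjusted p = 0.734), or 2.36 without tumor 1. Mir196a-1, between Hox genes, was the locus called lower. It had 2.08, 15.2, 12.8 and 26.6 in untreated and 0, 8.52, 0 and 0.802 in NAM-treated tumors, a log2 difference of −2.53 (SE 1.01, adjusted p = 0.734) on few reads, which passed the limit only through untreated tumors and lost its call without any single tumor other than untreated tumor 1 or NAM-treated tumor 2.

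**Figure D2:**
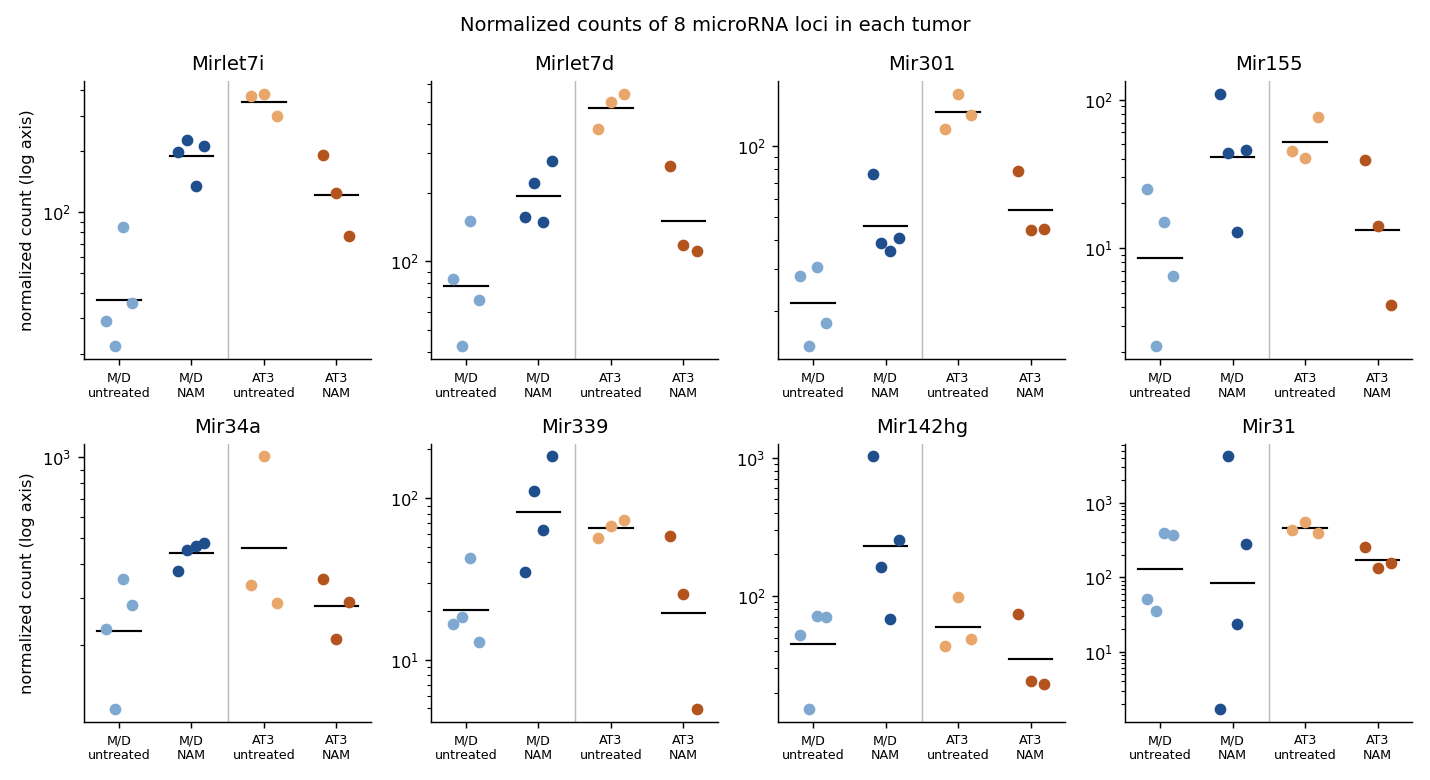
Normalized counts (log axis) of 8 microRNA loci in each tumor (points), by model and treatment, with black bars at the geometric mean of the group. Mirlet7i lies at 21.7 to 84.1 in untreated and 135 to 229 in NAM-treated M/D-driven tumors, whereas in AT3 tumors it goes from 299.5 to 386 down to 76.0 to 192. The models were normalized apart.

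Groups were fully separated at 4 loci, all higher with NAM, beside 2.43% of all genes, and at 0 loci that were lower, beside 2%. Without tumor 1 it was 5 loci, with Mir339 added. Mirlet7i and Mir34a were called among these, and 2 were not, Mir25 and Mir301. Mir25, of the miR-106b-25 cluster in the Mcm7 gene, passed the level limit only through NAM-treated tumors. It had 7.27, 0, 9.01 and 3.22 and 22.1, 13.4, 10.1 and 10.4, a log2 difference of 1.73 (SE 0.82, adjusted p = 0.738), or 1.5 without tumor 1. Mir301, in an intron of Ska2, had 28.05, 14.1, 30.8 and 17.7 and 76.4, 39.0, 35.9 and 40.9, a log2 difference of 1.05 (SE 0.46, adjusted p = 0.734), or 0.81 without tumor 1. Without NAM-treated tumor 4, calls of higher loci went from 6 to 3, and those of all genes from 658 to 458.

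Some loci were set apart by 1 M/D-driven tumor. Mir31, whose microRNA is lost in metastatic breast cancer cells, had 4210 normalized counts in NAM-treated tumor 2 and 1.70 in tumor 1, beside 34.8 to 399 in untreated tumors. The same tumor 2 held the highest counts of Mir23a (45.1), Mir27a (64.5) and Mir24-2 (60.9), which form 1 cluster on chromosome 8, and of Mir203 (41.4), known from stratified epithelium, which was at 0 in the other NAM-treated tumors. NAM-treated tumor 4 was the highest M/D-driven tumor for Mir145a (87.4, where the next highest was 10.1), whose microRNA belongs to smooth muscle, for Mir1a-1hg (39.3, next 8.26), the host transcript of a muscle microRNA, and for Mir140 (30.5, next 6.23). The summed count of 5 muscle markers was 624460 in this tumor, against 6624 to 185400 in the 7 others, and its part in these values was not tested.

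The second comparison asked the same in AT3 tumors, and there the let-7 loci were lower with NAM. Mirlet7i had 377, 386 and 299.5 in untreated and 192, 124 and 76.0 in NAM-treated tumors. Every NAM-treated tumor was below every untreated one. The mean went from 354 ± 47.4 (SD, n = 3) to 131 ± 58.3 (SD, n = 3), a log2 difference of −1.52 (SE 0.36, adjusted p = 0.166). Mirlet7d had 381, 502 and 545 and then 262, 118 and 112, also without overlap, a log2 difference of −1.63 (SE 0.37, adjusted p = 0.166). Mir99ahg, the host transcript of miR-99a, let-7c and miR-125b, had 141, 213 and 103 and 87.5, 26.3 and 27.3, and its log2 difference was −1.84 (SE 0.52, adjusted p = 0.166). Mir31 had 428, 552 and 396 and 258, 132 and 154, with a log2 difference of −1.38 (SE 0.31, adjusted p = 0.166). In these 4 loci NAM-treated tumor 1 lay nearest to the untreated tumors.

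Of the 33 loci tested in AT3 tumors, 11 were called lower with NAM, beside 10.9% of all 19281 genes tested, and 0 were called higher, beside 12.2%. A log2 difference above 0 was found for 2 of the 26 loci that passed the level limit in both groups, and for 47.5% of all genes. Groups were fully separated at 11 loci that were lower, beside 11% of all genes, and at 0 that were higher, beside 11.7%. The separated loci were not the same as the called ones. Mir24-2 and Mir677 were separated but not called, and Mir30b and Mir682 were called but overlapped. Mir677 passed the level limit only through untreated tumors, which favours its separation. All 11 called loci were among the 26 that passed the limit in both groups, and 6 others passed only through untreated tumors. The median log2 difference was −1.02 over the 26 and −0.05 over all genes. By length, the median over all genes was −0.29 for rows of up to 200 bases, −0.68 from there to 1200 bases, −0.44 up to 5000 bases and 0.13 above. In the same order, 54 of 280, 238 of 944, 825 of 4566 and 983 of 13491 genes were called lower. Those called higher numbered 10, 12, 67 and 2269, so that the shares over all genes mix rows that moved in opposite directions. With the dependence on length removed, 6 loci were called lower, namely Mirlet7i (−0.96), Mirlet7d (−1.12), Mir301 (−0.81), Mir31 (−1.59), Mir6236 (−2.21) and Mir99ahg (−2.49), and a call was lost for Mir155, Mir3091, Mir30b, Mir682 and Mir7666. An adjusted p of 0.05 was passed by 0 loci in limma (smallest 0.166), beside 0.00519% of all genes, by 0 in edgeR and by 8 in DESeq2, beside 1896 of 19281 genes. An unadjusted p of at most 0.05 in limma was found for 11 loci, beside 24.3%. Calls of lower loci ranged from 7 without NAM-treated tumor 3, beside 714 of 19324 genes, to 17 without NAM-treated tumor 1, beside 2955 of 19301. An adjusted p of 0.05 in limma was passed by 8 of 33 loci without NAM-treated tumor 1, beside 2498 of 19301 genes. Without untreated tumor 2 it was passed by 4 of 31 loci, beside 2520 of 18933 genes. Cell type markers also differed with NAM in AT3 tumors. All 4 endothelial markers were called higher, with summed counts of 2292 to 3352 in untreated and 3813 to 6486 in NAM-treated tumors, and so were 2 of 4 leukocyte markers (5011 to 8044 and 8238 to 9301) and 2 of 3 macrophage markers (5898 to 8123 and 6260 to 7381). The other macrophage marker tested, Cd68, had a log2 difference of −0.23 and was not called. Of 4 B cell markers 2 were lower (135 to 145 and 47.9 to 75.3). Of 8 epithelial markers 1 was called higher and 2 lower. Of 4 adipocyte markers 1 was lower, and of 5 muscle markers 1 was higher. No marker of T cells, fibroblasts or neutrophils was called. The part of these cells in the values of the loci was not tested.

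The other 7 loci called lower in AT3 tumors followed. Mir6236 (chr9:110281287-110281388) had the largest difference of the 11, with 20183, 19932 and 21332 normalized counts in untreated and 9427, 2294 and 1764 in NAM-treated tumors, a log2 difference of −2.60 (SE 0.53, adjusted p = 0.166). The groups did not overlap, and the source of the reads on this row was not tested. Mir301 had 119, 168 and 136 and 79.0, 44.2 and 44.6, a log2 difference of −1.36 (SE 0.36, adjusted p = 0.166). Mir155 had 44.9, 40.6 and 76.5 and 38.9, 14.1 and 4.13, a log2 difference of −1.86 (SE 0.73, adjusted p = 0.181) that lost its call without any single tumor other than untreated tumor 2 or NAM-treated tumor 1. Mir7666 (log2 difference −1.08), Mir30b (−1.26), Mir3091 (−0.94) and Mir682 (−0.96) made up the rest. Mir682 lost its call without untreated tumor 1 or NAM-treated tumor 3, Mir3091 without untreated tumors 1 or 3 or NAM-treated tumors 2 or 3, and Mir30b without untreated tumors 1 or 2 or NAM-treated tumors 2 or 3. Rpl37a, the mRNA that Mir682 resembles, was also lower, by a log2 difference of −1.13 (SE 0.29, adjusted p = 0.166). Mir34a (335, 1008 and 287, then 351, 211 and 290.0) and Mir142hg (43.5, 97.5 and 48.8, then 74.1, 24.5 and 23.1) were not called, with log2 differences of −0.72 (SE 0.46, adjusted p = 0.34) and −0.75 (SE 0.55, adjusted p = 0.405).

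Whether NAM acted differently in the models was tested by an interaction term over the 14 tumors, which uses the tumors of both NAM comparisons again. Of the 43 loci, 12 were called, all with a NAM effect that was higher in M/D-driven than in AT3 tumors, beside 6.97% of all 22710 genes in this direction and 7.9% in the other. On the log2 scale, the difference was 3.95 (SE 1.24) for Mir155, 3.85 (SE 0.64) for Mirlet7i and 3.61 (SE 1.05) for Mir339. It was 3.08 (SE 1.16) for Mir142hg, 2.95 (SE 1.11) for Mir25 and 2.94 (SE 0.63) for Mirlet7d. Mir6236 (2.64), Mir146 (2.43), Mir301 (2.4), Mir30b (2.09), Mir34a (1.69) and Mir7666 (1.56) followed. An adjusted p of 0.05 was passed by 0 loci in limma (smallest 0.153), where it was 0% of all genes, by 0 in edgeR and by 3 in DESeq2, beside 811 of 22710 genes. In limma 12 loci had an unadjusted p of at most 0.05, beside 14.9% of all genes. The median interaction was 1.53 over the 43 loci and 0.04 over all genes, with −0.05 for all rows of up to 200 bases, 0.90 from there to 1200 bases, 0.56 up to 5000 bases and −0.19 above. It was above 0 for 38 loci, and for 51.4% of all genes. Selection takes part in these values, since 6 loci passed the level limit through NAM-treated M/D-driven tumors alone and 4 through untreated AT3 tumors alone. Over the 22 loci past the limit in all 4 groups, the median was 1.63, 20 were above 0 and 11 were called. With the dependence on length removed, 11 of the 43 loci were higher and 2 lower, and Mir7666 and Mir30b were no longer called. Leaving out 1 tumor at a time kept the calls of Mirlet7i, Mirlet7d, Mir155, Mir301, Mir339, Mir6236 and Mir7666 in all 14 fits, whereas Mir142hg and Mir25 lost theirs without untreated AT3 tumor 2, Mir34a without that tumor or NAM-treated AT3 tumor 2, and Mir146 without untreated M/D-driven tumor 1, untreated AT3 tumor 3 or NAM-treated AT3 tumor 3. Mir30b lost its call in 9 fits, without untreated M/D-driven tumors 1, 2 or 4, NAM-treated M/D-driven tumors 1 or 4, untreated AT3 tumors 1 or 2 or NAM-treated AT3 tumors 2 or 3. Without NAM-treated M/D-driven tumor 1, 14 loci were called, beside 1649 of 22538 genes in this direction. Without NAM-treated AT3 tumor 1, 4 loci passed an adjusted p of 0.05 in limma, beside 535 of 22720 genes.

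Side by side, 28 loci were tested in both models, which share no tumor. Of these, 21 had a log2 difference above 0 in M/D-driven and below 0 in AT3 tumors, 4 were below 0 in both (Mir3061, Mir31, Mir682 and Mir99ahg), 1 was above 0 in both (Mir6961) and 2 were below 0 in M/D-driven and above 0 in AT3 tumors (Mir1900 and Mir5103). Called in both models, and in opposite directions, were Mirlet7i, Mirlet7d and Mir155.

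**Figure D3:**
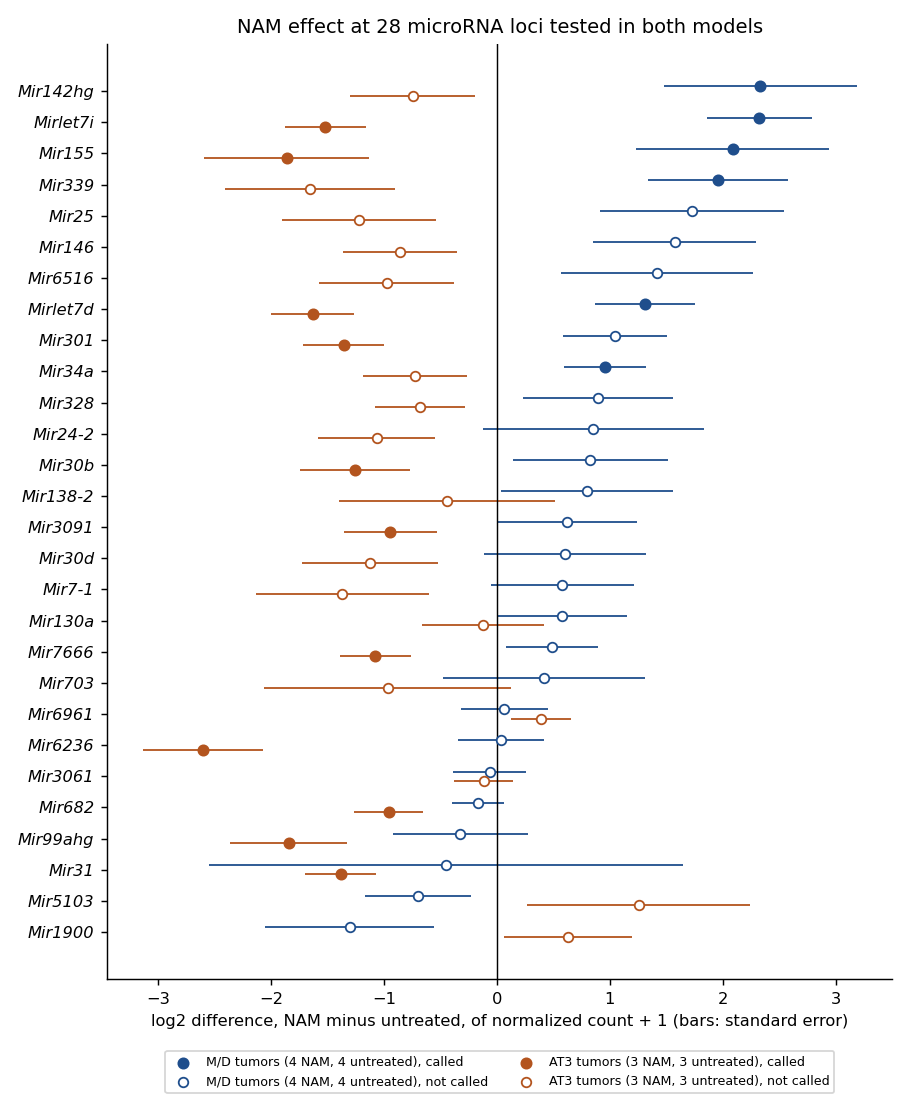
Log2 difference between NAM-treated and untreated tumors (x axis, bars give the standard error) at the 28 microRNA loci tested in both models, with filled points for called loci. Points for M/D-driven tumors lie to the right of those for AT3 tumors at 25 of the 28 loci, the exceptions being Mir6961, Mir5103 and Mir1900.

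The third comparison set untreated M/D-driven against untreated AT3 tumors, after joint rescaling, since the models had been normalized apart. This comparison uses the same untreated tumors as the NAM comparisons, so that the results are not independent of them. Of 37 loci tested, 22 were lower in M/D-driven tumors, beside 26.8% of all 21556 genes, and 4 were higher, beside 30%, and in either direction 56.8%. An adjusted p of 0.05 in limma was passed by 24 loci, beside 51.5% of all genes, and an unadjusted p of at most 0.05 by 27, beside 58.8%. A log2 difference above 0 was found for 7 loci, and for 50.8% of all genes. Groups were fully separated at 4 loci that were higher, beside 27.9%, and at 24 that were lower, beside 26.2%. The rescaling took the median of all genes from 0.48 as deposited to 0.03, and without it 18 loci were lower and 5 higher. The median difference was −2.03 over the loci, against −0.11 for all rows of up to 200 bases, −1.20 from there to 1200 bases, −0.72 up to 5000 bases and 0.33 above. In the same order, 130 of 369, 497 of 1078, 1939 of 5358 and 3204 of 14751 genes were called lower. Those called higher numbered 110, 104, 868 and 5385. With the dependence on length removed 23 loci were lower and 4 higher. Of all genes, 6964 were then lower and 4720 higher, with a median of −0.29. Loci that pass the level limit in 1 model only had to differ in this comparison. Selection also acts through the untreated groups alone. Among loci called lower, Mir140, Mir24-2, Mir25, Mir3060, Mir6516, Mir677 and Mir7-1 averaged under 10 in untreated M/D-driven tumors. Among those called higher, Mir196a-1, Mir296 and Mir5103 averaged under 10 in untreated AT3 tumors. Their differences are favoured by the limit and are descriptions.

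Lowest in M/D-driven relative to AT3 tumors was Mir140 (chr8:107551244-107551313), of cartilage and mesenchymal cells, in an exon of a Wwp2 transcript. It had 6.23, 2.17, 1.502 and 0.805 normalized counts as deposited in untreated M/D-driven and 33.3, 155 and 28.5 in untreated AT3 tumors, a log2 difference after rescaling of −4.42 (SE 0.80, limma adjusted p = 0.00239). Of the untreated groups, only AT3 tumors carried Mir140 past the level limit. Mirlet7i was lower by a log2 difference of −3.61 (SE 0.47, limma adjusted p = 0.00058), Mirlet7d of −2.99 (SE 0.42) and Mir301 of −3.04 (SE 0.43). The other loci called lower lay between −3.16 (Mir6516) and −1.40 (Mir682), Mir155 (−2.79), Mir6236 (−2.70), Mir25 (−2.67) and Mir34a (−1.43) among them, of which Mir25 and Mir34a lost their call without untreated AT3 tumor 2. Mir31 (−2.23) lost its call without untreated M/D-driven tumor 1 or any 1 of the untreated AT3 tumors, and Mir677 (−2.06) without untreated M/D-driven tumors 1, 2 or 4 or untreated AT3 tumors 1 or 2. Calls of lower loci ranged from 16 without untreated AT3 tumor 2, beside 5611 of 21089 genes, to 25 without untreated AT3 tumor 3, beside 5319 of 22037.

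Higher in M/D-driven tumors were Mir5103, Mir196a-1, Mir296 and the Mir6961 row. Mir5103 (chr1:34427018-34433265), the lincRNA Gm37233, had 265, 346, 267 and 149 in untreated M/D-driven and 5.80, 8.12 and 1.63 in untreated AT3 tumors, a log2 difference of 5.13 (SE 0.56, limma adjusted p = 0.000276). Mir196a-1 was at 0 in all 6 AT3 tumors. Of the untreated groups, only M/D-driven tumors carried Mir5103, Mir196a-1 and Mir296 past the level limit. Mir296 had 70.6, 19.6, 30.04 and 14.5 and 5.80, 4.06 and 3.26, a log2 difference of 2.10 (SE 0.66). The Mir6961 row, with the span of Bin2, had 2048, 1855, 1732 and 1529 and 336, 268 and 394, a log2 difference of 2.02 (SE 0.22). All 4 leukocyte markers were higher in M/D-driven tumors as well, with a median log2 difference of 1.76 and summed counts of 23938 to 35372 as deposited, against 5011 to 8044, and their part in the value of this row was not tested.

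Among NAM-treated tumors the models differed at fewer loci. There 2 were lower in M/D-driven tumors (Mir140 and Mir1900) and 6 were higher (Mir142hg, Mir145a, Mir146, Mir296, Mir5103 and Mir6961), with a median log2 difference of −0.07. Fewer genes were called over the whole table as well, with 2203 of 21286 lower and 3216 higher. This contrast includes NAM-treated M/D-driven tumor 1, the highest for Mir142hg (1020) and Mir6961 (3456), and is not given without it. Mir145a passed the level limit only through NAM-treated M/D-driven tumors, where tumor 4 had 87.4 and the others 2.55 to 10.1. Mirlet7i, at −3.61 in untreated tumors, stood at 0.27 in NAM-treated ones and was not called, and Mirlet7d went from −2.99 to −0.01. Mir140, at −4.42 in untreated tumors, stood at −3.92, and Mir5103 went from 5.13 to 3.20, both still called in the same direction. That the untreated and the NAM-treated differences were unlike at a locus is what the interaction term tested.

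**Figure D4:**
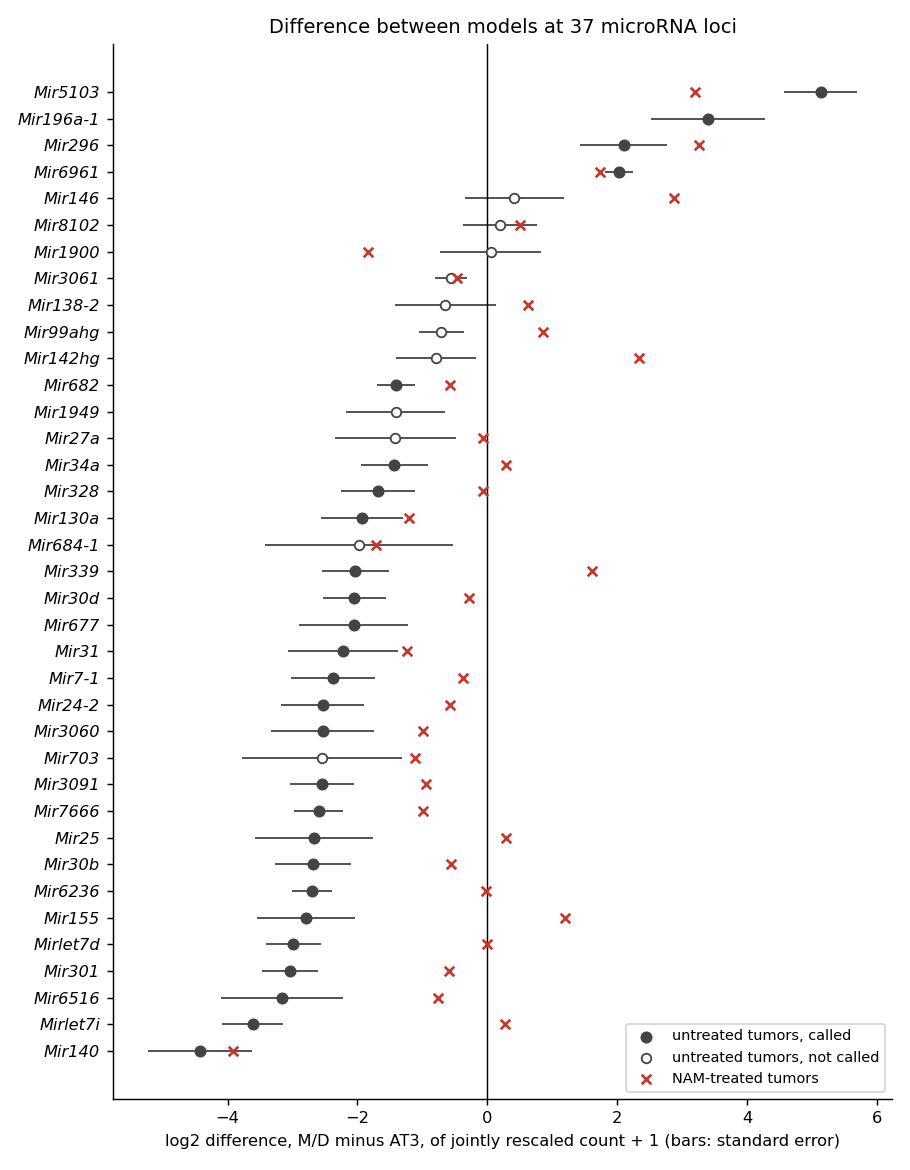
Log2 difference between M/D-driven and AT3 tumors (x axis) at 37 microRNA loci after joint rescaling, in untreated tumors (circles, filled where called, bars give the standard error) and in NAM-treated tumors (crosses, where tested). Mirlet7i goes from −3.61 in untreated to 0.27 in NAM-treated tumors, whereas Mir140 goes from −4.42 to −3.92 and Mir5103 from 5.13 to 3.20.

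Host genes were set beside the loci they enclose. A row named for 1 gene enclosed 15 of the 43 loci, 11 of them on the same strand. Rows that join several symbols also enclosed Mir684-1 (Dusp19 and Nup35) and Mir1949 (Snora74a and Snhg4) and were left out of the pairs. Mir6516 lies in an exon of Snhg20, a host gene of small nucleolar RNAs, and Snhg20 moved in both models. It had 149.6, 105, 316 and 146 in untreated and 416, 529.7, 429.9 and 808 in NAM-treated M/D-driven tumors, without overlap, a log2 difference of 1.67 (SE 0.40, adjusted p = 0.734), or 1.78 without tumor 1. In AT3 tumors it had 4155, 4165 and 3112 and 2044, 1205 and 986, again without overlap, a log2 difference of −1.49 (SE 0.29, adjusted p = 0.166). Its interaction was 3.16 (SE 0.53, adjusted p = 0.153), in limma. Mir6516 itself, on few reads, had log2 differences of 1.42 and −0.98 and was not called in either. The gene and the locus share sequence, so that their reads are not independent.

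At Mir25, Mir301 and Mir7-1 the host had smaller log2 differences with NAM than the locus. Mcm7, which encodes a subunit of the replicative helicase, had log2 differences with NAM of 0.40 in M/D-driven and 0.30 in AT3 tumors (neither called), beside 1.73 and −1.22 for Mir25. Ska2, of the spindle, had 0.40 and −0.49 (neither called), beside 1.05 and −1.36 for Mir301. Hnrnpk, an RNA-binding protein, had 0.005 and 0.13 (neither called), beside 0.58 and −1.37 for Mir7-1, which was not called. Rps21, a ribosomal protein gene, was lower with NAM in AT3 tumors (−1.33), as was Mir3091 in its intron (−0.94), and the value in M/D-driven tumors was 0.07 for the host and 0.62 for the locus, neither called. Wwp2, a ubiquitin ligase, was lower in untreated M/D-driven than AT3 tumors by a log2 difference of −3.83 (SE 0.29), beside −4.42 for Mir140. On the same strand, host and locus shared their sign in 8 of 8 pairs in M/D-driven and 7 of 9 in AT3 tumors. Among the former, the host was close to 0 for Hnrnpk (0.005), 3110082I17Rik (0.06) and Rps21 (0.07). NAM-treated tumor 1 was the highest M/D-driven tumor for Mcm7 (33352), Ska2 (1970), 3110082I17Rik (2461), Hnrnpk (22295) and Rps21 (35339). The count of shared signs includes this tumor and is not given without it. The median of the hosts was 0.40 and −0.49, against 1.34 and −1.22 for their loci. Selection takes part in the values of the loci. In M/D-driven tumors, Mir142, Mir145a, Mir25, Mir6516 and Mir7-1 passed the level limit only through NAM-treated tumors, which favours higher values with NAM. In AT3 tumors, Mir25, Mir677 and Mir3060 passed only through untreated tumors, which favours lower values. The host of Mir142 is Mir142hg, itself a detected locus that holds the hairpin. Whether signs agree more often than between other genes was not tested.

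**Figure D5:**
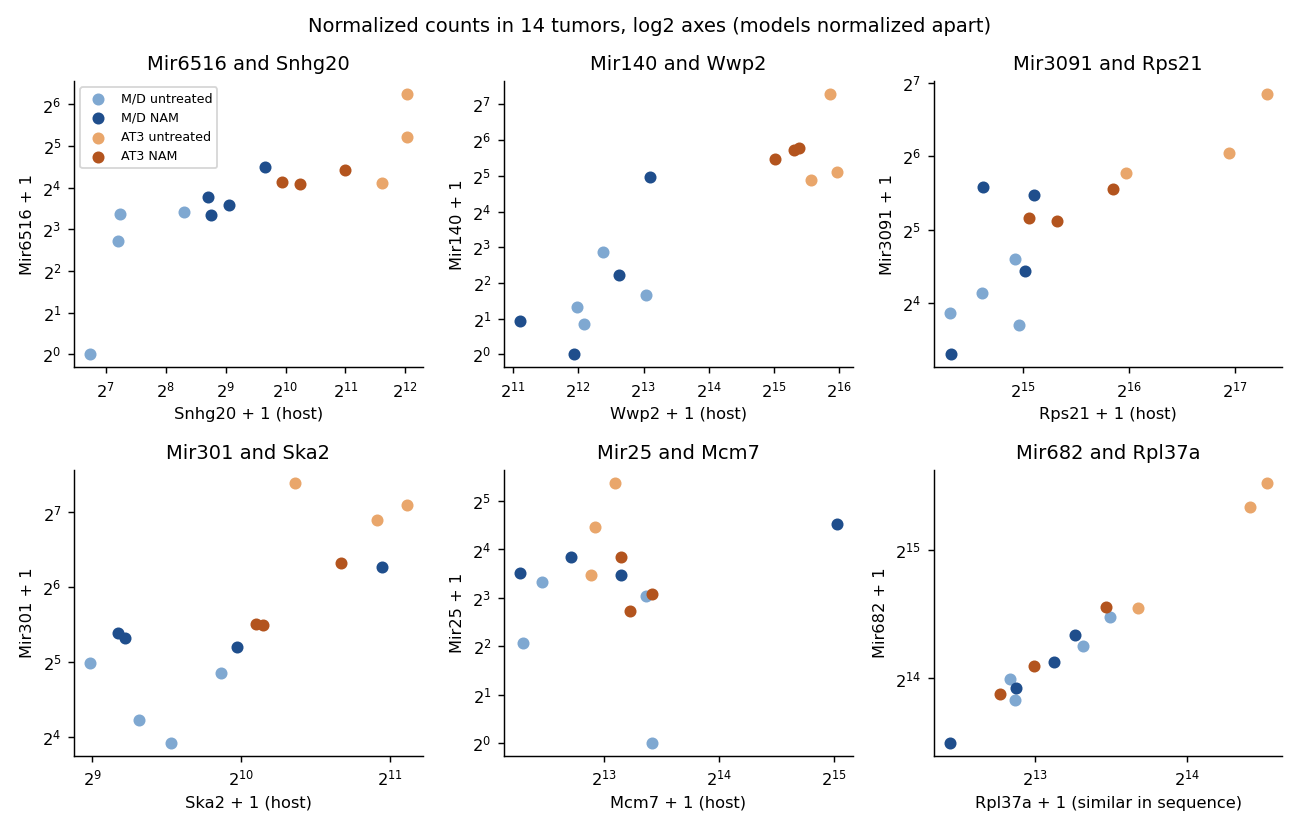
Normalized counts plus 1 (both axes log2) of 6 microRNA loci against their host gene, or for Mir682 against the mRNA it resembles, in 14 tumors coloured by group. Mir140 and Wwp2 separate the models, with Wwp2 at 2198 to 8763 in M/D-driven and 32947 to 63702 in AT3 tumors. Mir25 varies while Mcm7 stays between 4904 and 10933 outside NAM-treated M/D-driven tumor 1.

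The genes that process microRNAs were read as 1 list of 37 names. In M/D-driven tumors 26 were tested and 0 were called, with a median log2 difference of 0.08 and 6.22% of all genes called in either direction. Without tumor 1 the median was −0.04 and 0 were called. In AT3 tumors 24 were tested, of which 7 were higher with NAM, beside 12.2% of all genes, and 0 lower, beside 10.9%, with a median of 0.48. The higher ones numbered 2 without untreated tumor 1 or NAM-treated tumor 3, 3 without NAM-treated tumor 2, 4 without untreated tumor 3, 11 without NAM-treated tumor 1 and 13 without untreated tumor 2, and 3 with the dependence on length removed. They included Argonaute genes. Ago1 had 220.3, 339 and 205 in untreated and 529.7, 1567 and 1838 in NAM-treated AT3 tumors, without overlap, a log2 difference of 2.21 (SE 0.46, adjusted p = 0.166). Ago2, which encodes the Argonaute that cuts targets, had 359, 477 and 282 and 379, 1184 and 1165, a log2 difference of 1.14 (SE 0.44, adjusted p = 0.178), with NAM-treated tumor 1 among the untreated values. Zcchc11 (which adds uridines to let-7 precursors, 1.07), the editing enzymes Adar (0.59) and Adarb1 (1.12) and the helicases Ddx17 (0.60) and Dhx9 (1.34) were the others. Drosha (0.26), Dicer1 (0.35) and Xpo5, the exporter of hairpins (0.22), were not called.

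By the interaction term, 3 of the 26 processing genes had a lower NAM effect in M/D-driven than in AT3 tumors, beside 7.9% of all genes, with log2 values of −2.50 (SE 0.60) for Ago1, −1.39 (SE 0.59) for Ago2 and −0.74 (SE 0.34) for Dis3l2, an exonuclease that degrades uridylated let-7 precursors. Leaving out 1 tumor at a time, they numbered 1 (without untreated M/D-driven tumors 1, 3 or 4, NAM-treated M/D-driven tumor 2, untreated AT3 tumors 1 or 3 or NAM-treated AT3 tumors 2 or 3) to 6 (without untreated AT3 tumor 2), and 5 without NAM-treated M/D-driven tumor 1 or NAM-treated AT3 tumor 1. In untreated tumors 10 of 25 were higher in M/D-driven tumors, beside 30% of all genes, and 3 were lower, beside 26.8%. With the dependence on length removed 5 were higher and 6 lower. The balance of all genes turned likewise, from 6467 higher and 5770 lower to 4720 and 6964. Ago1 had 3275, 3742, 3061 and 2170 as deposited in M/D-driven tumors, a log2 difference from AT3 tumors after rescaling of 3.18 (SE 0.27). Lin28a, whose protein blocks the maturation of let-7, had 20.8, 2.17, 10.5 and 22.5 in untreated M/D-driven tumors and was at 0 in the untreated AT3 tumors.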

How the data were processed

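PolyA RNA of 14 tumors was sequenced by the authors (Truseq mRNA library, paired ends). Per the labels and the study's methods, reads were mapped with STAR 2.4.0 on mm10, assigned to genes by their constitutive regions in the Mouse FAST DB annotation, and scaled by size factors from DESeq2. The deposited values are therefore a normalized signal per gene, named normalized counts in the text. M/D-driven and AT3 tumors were normalized apart. Dividing by the step between low values gave whole reads for 100% of the values (tolerance 0.01). Strandedness of the counting is not given in the sources used here.

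Groups came from the sample labels. Rows were included as microRNA loci where the symbol starts with Mir and a digit or with Mirlet, names 1 gene and has a group mean of at least 10; 14 rows that join a microRNA with another symbol were left out. The members and gene lists were chosen with earlier results of these data known. Named were members called in a comparison (up to 20 by unadjusted p), the 10 highest members of each model, detected members of the lists, their enclosing host genes, the processing genes and members just beside the level limit. Rpl37a, Eef1a1 and the loci set apart by 1 tumor were named after their values were seen. The main test was limma 3.58.1 (R 4.3.3) with a mean-variance trend. It took log2(normalized count + 1) of every gene that reached a mean of 10 in a group compared, with Benjamini-Hochberg adjustment over all genes tested. For the models, untreated tumors were rescaled by joint median-of-ratios factors (1.10 to 1.16 for M/D-driven and 0.843 to 0.860 for AT3 tumors). p values measure the spread between these tumors only.

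Tests on recovered reads (edgeR 4.0.16, quasi-likelihood, and DESeq2 1.42.0, Wald) were alternatives. With NAM in M/D-driven tumors edgeR called 1076 genes higher and 579 lower and DESeq2 1328 and 791, against 658 and 692 in limma. In AT3 tumors edgeR called 2406 and 2273 and DESeq2 2591 and 2522, against 2358 and 2100. Other alternatives were the pseudocount, the filter, TMM factors, the replicate number as a block, a spline correction for row span within each tumor, 1 fit over all tumors and each tumor left out. Scripts were tested on simulated data with genes changed by known folds. Hairpins were compared with GENCODE M21 transcripts by BLAST 2.17.0. Tables and plots used Python 3.11.15, pandas 2.3.3 and matplotlib 3.10.9.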

Additional observations from a re-analysis of the deposited data

Results flagged for a closer look

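Within the groups of 4 M/D-driven tumors, 9 of 86 combinations of locus and group had a tumor far from the others by Dixon's test on log2 values. The nominal rate of the test is about 1 in 20, which does not hold where all other tumors of a group are at 0. Mir684-1, at 0 in all M/D-driven tumors, is among the 86 although it could not be flagged. NAM-treated tumor 2 held 4 of them. These were Mir7666 (134 normalized counts), Mir203 (41.4), Mir138-2 (2.44) and Mir3060 (0). NAM-treated tumor 4 was far from the others for Mir7-1 (19.3). Among untreated tumors, tumor 3 was for Mir1a-1hg (8.26) and Mir203 (5.26), tumor 2 for Mir1900 (6.52) and tumor 1 for Mir703 (4.15). For Mir203 in both groups and Mir1a-1hg in untreated tumors, all other tumors were at 0, which the test always flags. Mir203 passed the level limit only through NAM-treated M/D-driven tumors, where tumor 2 alone was above 0. The causes of the flagged values were not tested. AT3 groups of 3 were not tested in this way.

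The effect of NAM differed between models, by the interaction term in limma at an unadjusted p, for 12 loci. On the log2 scale these were Mirlet7i (3.85), Mirlet7d (2.94), Mir301 (2.4), Mir6236 (2.64), Mir339 (3.61), Mir155 (3.95), Mir7666 (1.56), Mir25 (2.95), Mir142hg (3.08), Mir34a (1.69), Mir146 (2.43) and Mir30b (2.09). None passed an adjusted p of 0.05 in limma with all tumors, whereas 4 loci did without NAM-treated AT3 tumor 1, beside 535 of 22720 genes, and model and experiment cannot be told apart.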

How the results depend on the processing

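Calls at the loci changed when single tumors were left out. Leaving out 1 tumor at a time, M/D-driven tumors gave 3 to 8 loci that were higher with NAM (6 with all tumors) and lower ones 0 to 1, loci lower with NAM in AT3 tumors 7 to 17 (11 with all) and higher ones 0 to 1, loci with a higher NAM effect in M/D-driven tumors 9 to 16 (12 with all) and with a lower one 0 to 2, and loci lower in untreated M/D-driven tumors 16 to 25 (22 with all) and higher ones 3 to 4. With a group mean of at least 50, loci lower in M/D-driven tumors went from 1 to 0 and those higher between models from 4 to 2, fewer loci being tested. The edgeR test on recovered reads also gave 0 lower in M/D-driven tumors. In AT3 tumors the lower loci were 6 with the trend with span removed and 7 with all 14 tumors in 1 fit. For the interaction, lower loci were 0, but 1 with no filter, 2 in edgeR, 3 in DESeq2 and 2 with the span trend removed. Between models, lower loci went from 22 to 2 in NAM-treated tumors, where Mirlet7i reversed to 0.27. Over all genes, those lower went from 5770 to 2203 in the same step. Apart from changes that follow from fewer loci or tumors, the cause was not tested.

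With the replicate number as a block, 5 loci were higher (Mirlet7d losing its call) and 1 lower in M/D-driven tumors, 11 lower in AT3 tumors (with 6 loci at an adjusted p of at most 0.05, beside 1296 of 19281 genes), 10 higher in the interaction, and 18 lower and 4 higher between models. Deviations of same-numbered tumors correlated by a mean of −0.18 in M/D-driven and 0.07 in AT3 tumors. For tumors of different numbers the means were 0.05 and −0.04. Whether the numbers pair the tumors cannot be settled from so few correlations. TMM factors took the median of all genes from 0.04 to −0.08 in the interaction and from 0.03 to 0.16 between models, and left 11 loci higher in the former and 22 lower in the latter. Over 40 single-locus results and 752 alternative values, 675 kept direction and call, 76 kept direction only and 1 reversed. Between models this tally covered only Mirlet7i, Mirlet7d, Mir301, Mir140, Mir5103, Mir6961, Mir196a-1, Mir296, Mir6236 and Mir682. Less stable loci were left out of it, such as Mir677 and Mir31. With 1 tumor left out, these kept their calls in 2 of 7 and 3 of 7 fits. Precision is limited by 3 or 4 tumors a group and, at loci of few reads, by depth.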
